A study of Mus musculus with 6 samples.

Results

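Described here are 8 genes of the Notch pathway in mouse primary hepatocytes: the receptors Notch1 and Notch2, the ligand Jag1, the nuclear factors Rbpj and Maml1, and the target genes Hes1, Hey1 and Heyl. They were taken by symbol from the deposited count table and are 8 of its 25184 genes. All 8 passed the filter on low counts (a mean normalised count above 5), which kept 15105 genes, although Hey1 and Heyl passed it with very few counts. The genes were selected on values of these same libraries, the difference of normalised counts between the genotypes, so for these 8 that difference is given as a description, with its standard error and without a test.

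The study asked what the loss of the succinate receptor SUCNR1 changes in hepatocytes. RNA was sequenced from 6 libraries. The 3 Sucnr1 fl/fl libraries came from Cre-negative control mice homozygous for an allele of Sucnr1 with loxP sites around exon 2, and the 3 Hep-Sucnr1 KO libraries came from mice with the same floxed alleles and 1 copy of the Alb-Cre transgene, in which the promoter of the albumin gene drives Cre. Animals of both groups ate chow, and their hepatocytes were purified on a density gradient and kept overnight on collagen before RNA extraction; the labels give neither age nor sex. The libraries are named here as fl/fl 1, 2 and 3 and KO 3, 4 and 5, after the numbers in their labels. RNA of fl/fl 1 and KO 3 was extracted on day 1 and that of the other 4 libraries on day 2. The library indexes came in 2 number series, 1 with fl/fl 1 and fl/fl 2 and the other with fl/fl 3 and all KO libraries.

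Notch receptors are cell surface proteins that are switched on by ligands of the Jagged and Delta families on a neighbouring cell. The ligand exposes the receptor to proteases that release its intracellular domain, which enters the nucleus, binds the DNA-binding protein RBPJ and recruits MAML co-activators to target genes such as the HES and HEY repressors. In the liver the pathway is known for its part in the formation of bile ducts, where JAG1 signals to NOTCH2, and for its role in the specialisation of blood vessels.

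The upstream sequences of 3 genes are shown because RBPJ binds the core TGGGAA and HES and HEY proteins bind CACGCG, so these stretches show where a pathway gene carries the letters that pathway proteins recognise. The RefSeq table for GRCm38.p6 had an entry for 5 of the 8 genes (6 start sites), and the 250 bases before each start were searched on both strands. Capitals mark CACGCG, or its reverse complement, in Notch2 and Jag1, and TGGGAA, or its reverse complement, in Rbpj. The stretches are chr3:98013288-98013537 (plus strand) for Notch2, chr2:137116521-137116770 (minus strand) for Jag1 and chr5:53590096-53590345 (plus strand) for Rbpj, each printed 5′ to 3′ on the strand of its gene. 
Notch2: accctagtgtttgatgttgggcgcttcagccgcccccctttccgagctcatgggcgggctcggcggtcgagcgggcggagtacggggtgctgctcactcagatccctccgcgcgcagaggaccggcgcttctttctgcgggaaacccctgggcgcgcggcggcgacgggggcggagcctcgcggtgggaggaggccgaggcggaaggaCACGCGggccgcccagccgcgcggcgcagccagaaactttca
Jag1: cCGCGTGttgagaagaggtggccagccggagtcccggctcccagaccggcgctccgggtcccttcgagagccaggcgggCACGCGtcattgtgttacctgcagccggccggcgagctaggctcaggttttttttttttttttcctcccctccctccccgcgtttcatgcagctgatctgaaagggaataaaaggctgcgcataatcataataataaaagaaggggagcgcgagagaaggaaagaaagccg
Rbpj: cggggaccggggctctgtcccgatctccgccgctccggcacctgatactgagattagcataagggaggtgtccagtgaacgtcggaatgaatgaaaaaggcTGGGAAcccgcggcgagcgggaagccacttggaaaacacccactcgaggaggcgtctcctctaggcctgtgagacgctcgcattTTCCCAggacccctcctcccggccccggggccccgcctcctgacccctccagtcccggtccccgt
CACGCG began 42 bases before the start of Notch2 and, in Jag1, 171 bases before the start on the strand of the gene and 249 bases before it on the opposite strand. It was found in the same window of 7.62% of the 32851 promoters in the table. TGGGAA occurred in Rbpj alone among these genes, 149 bases before the start shown on the strand of the gene and 65 bases before it on the opposite strand; the second start of Rbpj, whose window overlaps the first, had it once. The letters TGGGAA stood in 21.6% of all promoters and the longer form GTGGGAA, found in 5.42% of all, in none of these 6. Of the further HES and HEY motifs, CACNAG was present in Notch1 and Notch2 (36.7% of all promoters) and CACGTG in none of the 6 (6.02% of all). These matches describe letters and do not show binding. Hes1, Hey1 and Heyl had no entry.

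Library totals lay between 30504248 and 38770694 counts on genes, so that 1 CPM (counts scaled to the library total after TMM correction for library composition) stood for 30.3 to 38.5 counts. Sucnr1 itself had 103 to 258 counts in the fl/fl and 5 to 84 in the KO libraries, with the most left in KO 3. In CPM, KO 3 was at 2.66, not far below the lowest control, fl/fl 3, at 3.39. KO 4 and KO 5 were at 0.827 and 0.152 CPM. KO 3 is the only KO library of day 1, so every genotype difference on day 1 rests on it. The hepatocyte markers were abundant, with Alb (albumin) at 37100 to 68900 CPM. Defining bile duct markers were at or near 0: Krt7 stayed at or below 0.33 CPM and Krt19 at or below 0.89 CPM. Across all genes, the quasi-likelihood test of edgeR, adjusted after Benjamini and Hochberg, called 0 genes for genotype (DESeq2 called 7), with 562 genes, or 3.72%, at an unadjusted p below 0.05.

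Per kb of exon, Hes1 had the highest level of the 8 genes. It reached 10.6 CPM per kb (range over the 6 libraries 8.19 to 13.7), and its lowest library lay above the highest library of the next gene, Maml1, at 6.51 (5.57 to 7.38). Rbpj followed at 5.12 (3.41 to 7.03) and Notch2 at 4.39 (3.59 to 6.04); the ranges of Maml1, Rbpj and Notch2 overlapped, so their order is not resolved. Notch1 lay below Notch2 in every library of either gene, at 2.30 (1.71 to 3.50), and its range overlapped that of Jag1 at 1.55 (1.10 to 2.25). Hey1 at 0.0499 and Heyl at 0.0445 were far lower than all the others and overlapped with each other. Hes1 was therefore the only one of the 3 listed target genes with more than a trace of RNA. With the length of the longest transcript in place of all exons together, Rbpj rose to 11.9 CPM per kb (7.93 to 16.3), within the range of Hes1 at 14.7 (11.4 to 19.0), and Notch1 at 3.44 overlapped with Notch2.

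**Figure D1:**
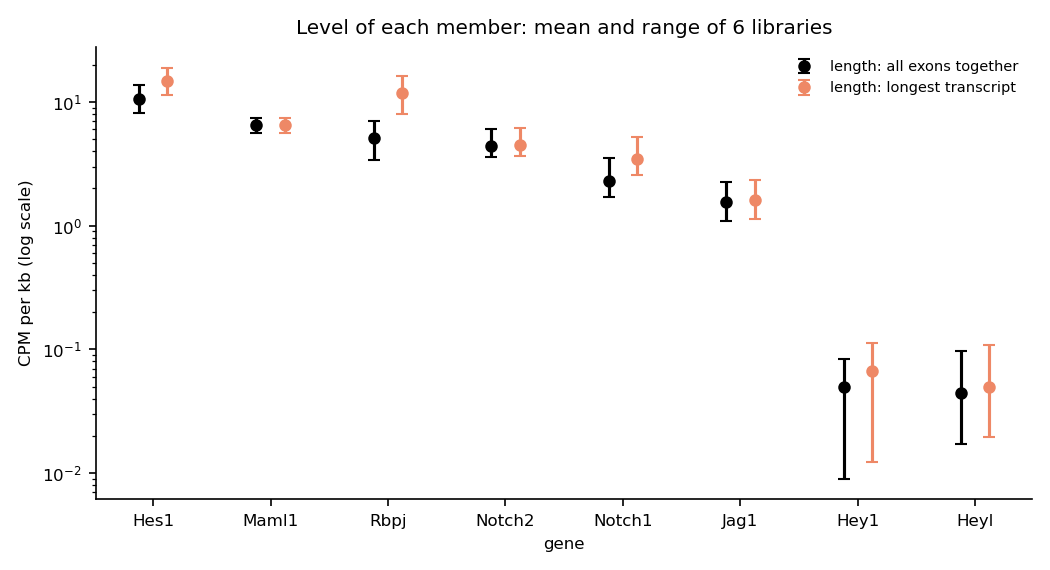
The vertical axis gives CPM per kb on a log scale and the horizontal axis the 8 genes, with the point at the mean and the bar from the lowest to the highest of the 6 libraries; black uses the length of all exons together and orange that of the longest transcript. Hes1 stands highest at 10.6 and 14.7, and Hey1 and Heyl lie at or below 0.113 in every library.

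Hes1 (ENSMUSG00000022528; GRCm38 chr16:30064384-30067796) encodes a transcriptional repressor and is a direct target of Notch. Its level was 27.9, 25.2 and 22.0 CPM in fl/fl 1, 2 and 3 and 19.8, 16.7 and 17.9 CPM in KO 3, 4 and 5, from 565 to 1073 counts per library. Every KO library lay below every fl/fl library, with the narrowest gap between fl/fl 3 and KO 3. The KO mean was 72.4% of the fl/fl mean, and the log2 fold change in the model with extraction day was −0.46 (SE 0.11). The difference had nearly the same size on both days, −0.49 on day 1 (1 library of each genotype) and −0.45 on day 2 (2 of each) as a difference of log2 CPM. Within the 4 libraries of the second index series, fl/fl 3 at 22.0 CPM stood against 16.7 to 19.8 CPM in the 3 KO libraries, and with the index series as a further term the log2 fold change was −0.34 (SE 0.17).

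Hey1 (ENSMUSG00000040289) and Heyl (ENSMUSG00000032744), repressors of the same family that are best known from blood vessels and the heart, were barely detected. Hey1 had 10, 2 and 5 counts in fl/fl 1, 2 and 3 and 6, 1 and 9 counts in KO 3, 4 and 5. Heyl had 19, 3 and 7 counts in the fl/fl and 4, 3 and 11 counts in the KO libraries in the same order. The genotypes overlapped fully for both genes. At this depth no genotype difference was detectable in either, with standard errors of 0.78 and 0.76 around log2 fold changes of 0.07 for Hey1 and −0.45 for Heyl.

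**Figure D2:**
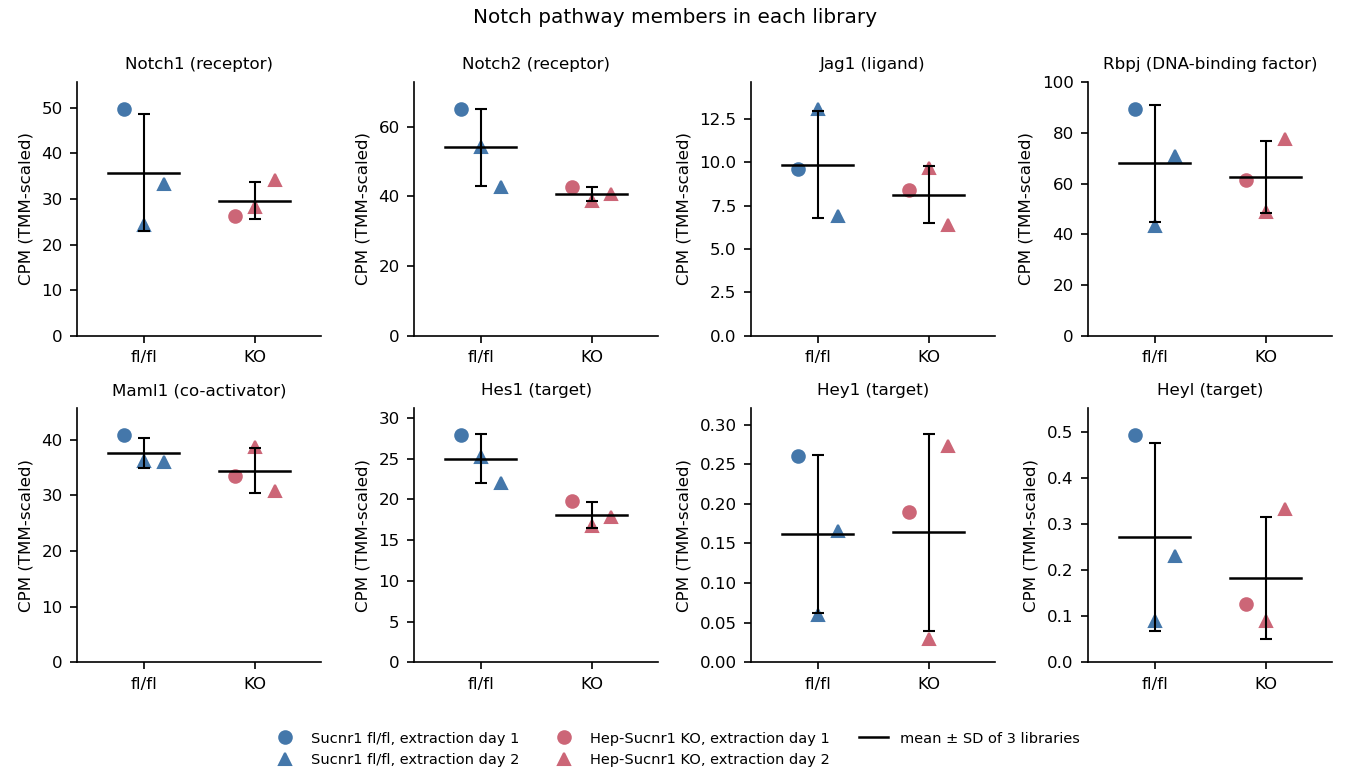
Each panel shows 1 gene, with CPM from 0 on the vertical axis, fl/fl libraries in blue and KO libraries in red, circles for extraction day 1, triangles for day 2, and the bar at the mean ± SD (n = 3). Hes1 and Notch2 are the 2 genes whose KO libraries all lie below their fl/fl libraries; the other 6 overlap.

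Notch2 (ENSMUSG00000027878; chr3:98013527-98150361) is the receptor tied to bile duct formation. It was at 65.1, 54.2 and 42.8 CPM in fl/fl 1, 2 and 3 and at 42.6, 38.7 and 40.7 CPM in KO 3, 4 and 5. The groups did not overlap, but fl/fl 3 and KO 3 were almost equal, and the fl/fl libraries spread far more (54.0 ± 11.1 CPM, SD, n = 3) than the KO libraries (40.7 ± 1.96 CPM, SD, n = 3). The log2 fold change was −0.40 (SE 0.13), −0.29 (SE 0.16) without fl/fl 1, and −0.13 (SE 0.16) with the index series as a further term. With library totals alone in place of TMM, fl/fl 3 at 40.9 CPM fell below KO 3 at 43.6 CPM and the groups overlapped. Hes1 and Notch2 ranked the 6 libraries in the same order, from fl/fl 1 through fl/fl 2, fl/fl 3, KO 3 and KO 5 down to KO 4. Of the 15104 genes tested besides Hes1, 37 (0.245%) shared that order, Notch2 among them. The order places every KO library below every fl/fl library, which was so for 610 genes (4.04%). Since the genes were chosen with the genotype contrast known, nothing is read from the shared order.

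Notch1 (ENSMUSG00000026923; chr2:26457903-26516663), the other receptor, did not separate the genotypes. Its level was 49.8, 24.4 and 33.2 CPM in fl/fl 1, 2 and 3 and 26.3, 28.3 and 34.1 CPM in KO 3, 4 and 5. fl/fl 1 stood alone at the top, while fl/fl 2 was the lowest of all 6. The log2 fold change of −0.23 (SE 0.24) turned to 0.11 (SE 0.20) without fl/fl 1 and to 0.11 (SE 0.19) without KO 3, the 2 libraries of day 1. The direction differed between the days, at −0.92 on day 1 and 0.13 on day 2 as a difference of log2 CPM. In the test of the interaction between genotype and day, which the choice of the genes did not use, Notch1 was the only 1 of the 8 genes with an unadjusted p below 0.05 (log2 difference between the days 1.03, unadjusted p = 0.025), among 3.69% of all genes. Its adjusted p was 1.0 in edgeR, and DESeq2 called 0 of the 8 and 0.0265% of all genes. On day 1 that test rests on 1 library per genotype, with the spread taken from day 2.

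Jag1 (ENSMUSG00000027276; chr2:137081456-137116644), the ligand for NOTCH2 in bile duct formation, overlapped between the genotypes. It was at 9.62, 13.1 and 6.92 CPM in fl/fl 1, 2 and 3 and at 8.39, 9.66 and 6.40 CPM in KO 3, 4 and 5. Its highest library, fl/fl 2, was the lowest for Notch1 and Rbpj. The log2 fold change was −0.28 (SE 0.27); it was 0.03 (SE 0.23) without fl/fl 2 and 0.29 (SE 0.33) with the index series as a further term.

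Rbpj (ENSMUSG00000039191; chr5:53466152-53657362), the DNA-binding partner of all Notch receptors, was at 89.6, 43.5 and 70.8 CPM in fl/fl 1, 2 and 3 and at 61.3, 49.0 and 77.6 CPM in KO 3, 4 and 5. Both genotypes covered nearly the same range, and the log2 fold change was −0.08 (SE 0.27). The pseudogene Rbpj-ps3 had 382, 154 and 230 counts in the fl/fl and 217, 182 and 298 in the KO libraries, ranking the 6 libraries just as Rbpj did. Rbpj counts ran from 1446 to 3446, and whether reads of one locus were counted on the other is not known, so the level of Rbpj is uncertain. Maml1 (ENSMUSG00000050567; chr11:50255634-50292311), the co-activator, varied least of the 8 genes, by 1.33-fold from its lowest to its highest library. It was at 40.8, 36.2 and 35.9 CPM in the fl/fl and 33.5, 38.7 and 30.8 CPM in the KO libraries. The groups overlapped, with a log2 fold change of −0.13 (SE 0.13).

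**Figure D3:**
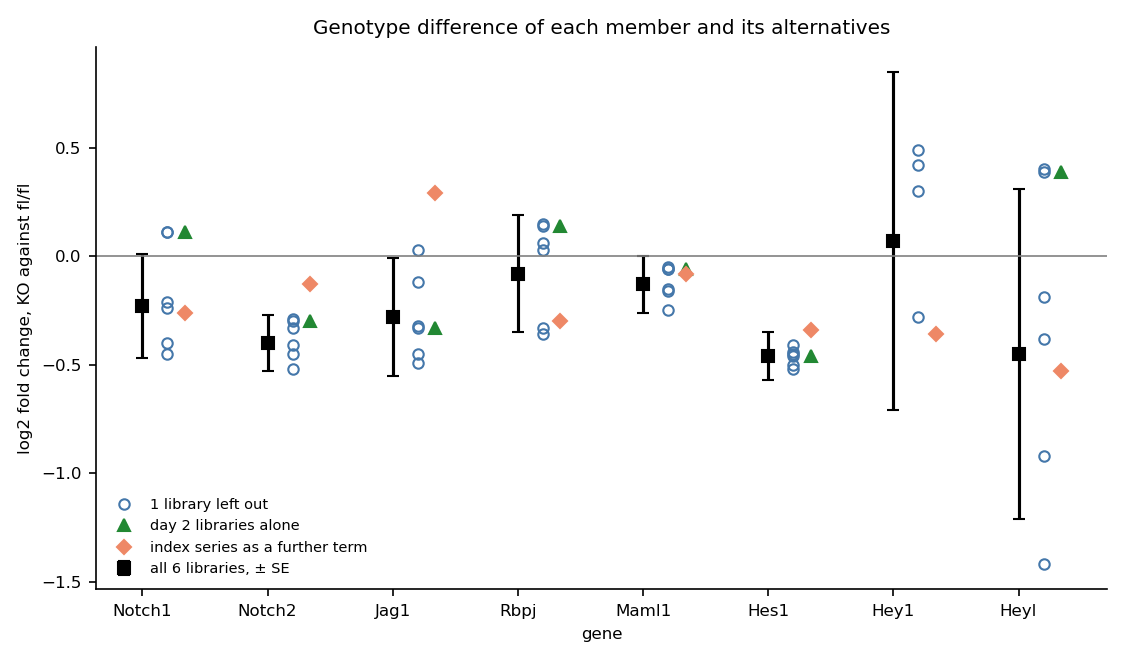
The vertical axis gives the log2 fold change of KO against fl/fl for each of the 8 genes, with black squares and bars for all 6 libraries ± SE, open circles for fits without 1 library, green triangles for the day 2 libraries alone and orange diamonds for the index series as a further term. Every point of Hes1 (−0.52 to −0.34), Notch2 and Maml1 lies below 0, and the points of the other 5 genes lie on both sides; Hey1 and Heyl carry the widest bars.

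Of the 8 genes, 2 thus had groups that did not overlap, both with the KO libraries lower. Among all genes tested that was so for 4.04% with the KO libraries lower and for 10.6% in either direction. In 7 of the 8 genes the log2 fold change was below 0 (49.5% of all genes), and the median of the 8 was −0.25 against 0.00 over all genes. Since the genes were chosen with this contrast known, nothing is read from these counts.

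Extraction day gave a contrast that the choice did not use. The log2 difference of day 2 against day 1, adjusted for genotype, ran from −0.78 (SE 0.80) in Hey1 to 0.00 (SE 0.29) in Jag1, with a median of −0.29 against 0.02 over all genes tested. For Hes1 it was −0.22 (SE 0.12) and for Notch2 −0.27 (SE 0.14). The adjusted p of the 8 genes lay between 0.791 and 1.0 (edgeR, after Benjamini and Hochberg), so 0 of the 8 passed, with 0 at an unadjusted p below 0.05 and 0 calls by DESeq2. Over all genes edgeR called 0 (0%) for day, 7.49% had an unadjusted p below 0.05, and DESeq2 called 1.61%. Without fl/fl 1 the day difference of Notch1 was 0.24, that of Rbpj 0.05, that of Maml1 0.05 and that of Heyl 0.71.

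Library fl/fl 1 was the highest of the 6 for 6 of the 8 genes, with Hey1 and Jag1 as the exceptions. In bulk RNA, fewer cells of a type and less RNA per cell cannot be told apart. The same library had the most RNA of sinusoidal endothelial markers, at 92.7 summed CPM over 10 genes, against 55.4 in each of fl/fl 2 and fl/fl 3 and 34.3, 63.8 and 51.0 in KO 3, 4 and 5. Of these 10 markers, which were counted in every library, 9 were highest in fl/fl 1 and 5 lowest in KO 3; Cdh5 (VE-cadherin) ranged from 11.9 to 43.4 CPM. Of 12 stellate and mural cell markers, 8 were highest in fl/fl 1, with summed levels of 10.5 to 35.7 CPM in the fl/fl and 8.95 to 14.6 CPM in the KO libraries and with Des, Acta2 and Col3a1 at 0 in some library. For genotype, the log2 fold change was below 0 in 9 of 10 endothelial markers (median −0.24). It was also below 0 in 7 of the 8 stellate and mural cell markers tested (median −0.38) and 10 of 10 Kupffer cell markers (median −0.40). The share over all genes was 49.5%, and the median of the 8 Notch pathway genes was −0.25. These differences changed with day, given here as a difference of log2 CPM. On day 1 (fl/fl 1 and KO 3 alone) all 10 endothelial markers were below 0, from −1.86 in Cdh5 to −0.36 in Gpr182. On day 2 Kdr (0.56), Stab2 (0.12), Lyve1 (0.46), Clec4g (0.71), Fcgr2b (0.31) and Oit3 (0.09) were above 0. Pecam1 (−0.20), Tek (−0.62), Gpr182 (−0.05) and Cdh5 (−0.04) stayed below it. The count of 9 of 10 endothelial markers thus leaned on the day 1 pair. The Kupffer cell marker Clec4f was −2.02 on day 1 and 0.46 on day 2. Without fl/fl 1 the log2 fold change was −0.45 (SE 0.15) in Hes1 and −0.29 (SE 0.16) in Notch2. It was 0.11 (SE 0.20) in Notch1 and 0.15 (SE 0.31) in Rbpj. The part of these cells in the levels and in the genotype differences of Notch1, Notch2, Rbpj and Hes1 was not tested. By library, the Kupffer cell markers were highest in fl/fl 3, at 163 summed CPM, and lowest in KO 3, at 36.3.

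**Figure D4:**
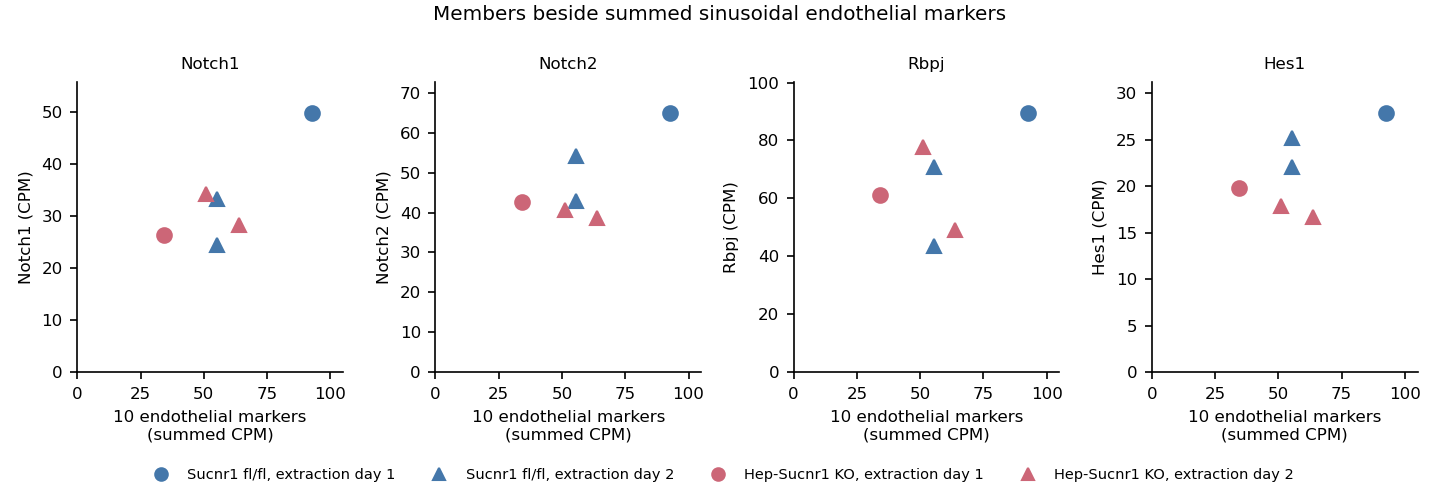
The horizontal axis is the summed CPM of 10 sinusoidal endothelial markers and the vertical axis the CPM of the gene named above each panel, both from 0, with 1 point per library, fl/fl in blue, KO in red, circles for day 1 and triangles for day 2. Library fl/fl 1, at 92.7 on the horizontal axis, is the highest point in all 4 panels. The other 5 libraries lie between 34.3 and 63.8 on that axis.

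On day 2 the genes did not rise and fall together. Within the fl/fl pair, fl/fl 3 was above fl/fl 2 for Notch1, Rbpj, Hey1 and Heyl and below it for Notch2, Jag1, Maml1 and Hes1. Within the KO pair, KO 5 was above KO 4 for the same 4 genes and also, by little, for Notch2 and Hes1, and below it for Jag1 and Maml1. Library composition moved with this: the 20 most abundant genes took 26.8% of the counts in fl/fl 3 and 26.9% in KO 5, against 23.9% in fl/fl 2 and 23.3% in KO 4. The part of composition in these levels was not tested.

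The genes whose pattern was most like that of Hes1, by Pearson correlation of log2 CPM over the 6 libraries among 11713 genes at a mean of at least 1 CPM, were Braf (r = 0.994), Col4a3bp (0.992), Klf7 (0.991), Adnp2 (0.986) and Ptprf (0.986). Klf7, a zinc finger transcription factor, was at 10.3 ± 1.37 CPM in fl/fl and 7.84 ± 0.678 CPM in KO libraries (SD, n = 3 each). Adnp2, a homeobox zinc finger gene, was at 34.9 ± 2.96 and 27.3 ± 0.916 CPM. In all, 33 genes reached an r of 0.95. Notch2 stood at rank 42 with r = 0.943, while Maml1 (0.494), Jag1 (0.468), Notch1 (0.422) and Rbpj (0.228) were far less alike. With 6 libraries that share genotype, day and depth differences, these values are a description.

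The rest of the pathway was followed in 77 further genes listed by role, of which 75 were in the table and 64 were tested. For genotype, 0 of the 64 reached an FDR below 0.05 with edgeR and 0 with DESeq2, against 0% and 0.0636% of all genes. At an unadjusted p below 0.05, 3 were lower in KO libraries (1.81% of all genes) and 0 were higher (1.91%). The log2 fold change was below 0 in 43 and above 0 in 21 of the 64, with a median of −0.10. The groups did not overlap in 8 genes with KO lower, 12.5% of the 64 against 4.04% of all genes. In 2 genes they did not overlap with KO higher, 3.12% against 6.54%. The lists of these further genes were chosen with earlier results of these data known. Nothing is therefore read from these counts or from those by role below.

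Of the other receptors, Notch4, known from endothelium, was at 0.451 to 0.884 CPM and overlapped between genotypes, and Notch3 was below the filter. Of the other ligands, Dll1 overlapped at 5.68 to 9.49 CPM in fl/fl and 2.97 to 9.68 CPM in KO libraries. Dll4, the Delta ligand of blood vessels, was at 0.546, 0.451 and 0.264 CPM in fl/fl 1, 2 and 3 and at 0.253, 0.236 and 0.182 CPM in KO 3, 4 and 5, so its groups did not overlap, but its log2 fold change of −0.89 (SE 0.42) did not pass (unadjusted p = 0.0744, edgeR; adjusted p = 0.998). Dll3, Jag2, Dlk1 and Dlk2 were below the filter. Of the enzymes that modify or fold receptors, Gxylt1, Poglut1 and Pofut1 were measured at 6.17 to 14.9 CPM, and 0 of 6 tested had an unadjusted p below 0.05, a list too short to set against the 3.72% of all genes. Of the ubiquitin ligases that activate ligands, Mib1 was at 41.4 to 46.4 CPM in fl/fl and 39.6 to 40.5 CPM in KO libraries (log2 fold change −0.15, SE 0.10), and Mib2 and Neurl1a overlapped.

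Of the 10 proteases and protease subunits that cut the receptor, 2 had an unadjusted p below 0.05, both lower in KO libraries (1.81% of all genes), and 0 passed after adjustment. Furin, the convertase that matures the receptor on its way to the surface, was at 249, 213 and 176 CPM in fl/fl 1, 2 and 3 and 147, 159 and 174 CPM in KO 3, 4 and 5. The groups only just failed to overlap, and the log2 fold change was −0.40 (SE 0.16; unadjusted p = 0.0399, edgeR; adjusted p = 0.998). Aph1b, a subunit of gamma-secretase, the complex that releases the intracellular domain, was at 1.32 to 1.56 CPM in fl/fl and 0.709 to 1.00 CPM in KO libraries, with a log2 fold change of −0.75 (SE 0.27; unadjusted p = 0.0287, edgeR; adjusted p = 0.998). Aph1a, a related subunit gene named after its values were seen, was far more abundant, at 29.1 to 35.1 CPM over all libraries. Its groups overlapped, with a log2 fold change of 0.05 (SE 0.11). Psen2, a catalytic subunit of gamma-secretase, was at 107 to 134 CPM in fl/fl and 142 to 162 CPM in KO libraries (log2 fold change 0.30, SE 0.13). Psenen, a further subunit that was named after its values were seen, had a log2 fold change of 0.13 (SE 0.10) with groups that did not overlap. Adam10, the sheddase that makes the ligand-dependent cut, overlapped at 44.0 to 59.0 CPM over all libraries.

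Among regulators of receptor turnover, Nedd4, Dtx3l and Aak1 had the highest mean CPM and overlapped between genotypes; Numb, an endocytic adaptor that restrains Notch, was named after its values were seen, at 23.7 to 24.2 CPM in fl/fl and 20.6 to 22.4 CPM in KO libraries (log2 fold change −0.15, SE 0.10). Dtx3l, a Deltex family ubiquitin ligase, was the only 1 of the 64 genes that DESeq2 called for day, a share close to the 1.61% of all genes that it called. Its log2 difference on day 2 was 0.90 (SE 0.24), with an edgeR adjusted p of 0.505. Among the nuclear activators, 6 of 7 had a log2 fold change below 0; Kat2b, a histone acetyltransferase, was at 33.9 to 38.7 CPM in fl/fl and 29.4 to 32.2 CPM in KO libraries (log2 fold change −0.28, SE 0.11; unadjusted p = 0.0373, edgeR; adjusted p = 0.998), while Ep300 and Snw1 overlapped. Of the Rbpj co-repressors, 8 of 15 were below 0 and 7 above; Tle5, Tle3 and Ncor1 overlapped, and Tle2, named after its values were seen, did not (log2 fold change −0.32, SE 0.20). Of the other target genes, Bhlhe40, Id3 and Myc had the highest mean CPM. All 3 overlapped between genotypes, with log2 fold changes of −0.12 (SE 0.14), −0.06 (SE 0.12) and −0.06 (SE 0.17). Sox9, a target in bile duct precursors that is also on the list of bile duct markers and was named after its values were seen, was at 83.1 to 120 CPM in fl/fl and 84.8 to 122 CPM in KO libraries. Of the 10 target genes tested besides Hes1, Hey1 and Heyl, 0 had groups that did not overlap, against 10.6% of all genes, which so short a list cannot set apart. Hes5, Hey2 and Nrarp were below the filter.

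**Figure D5:**
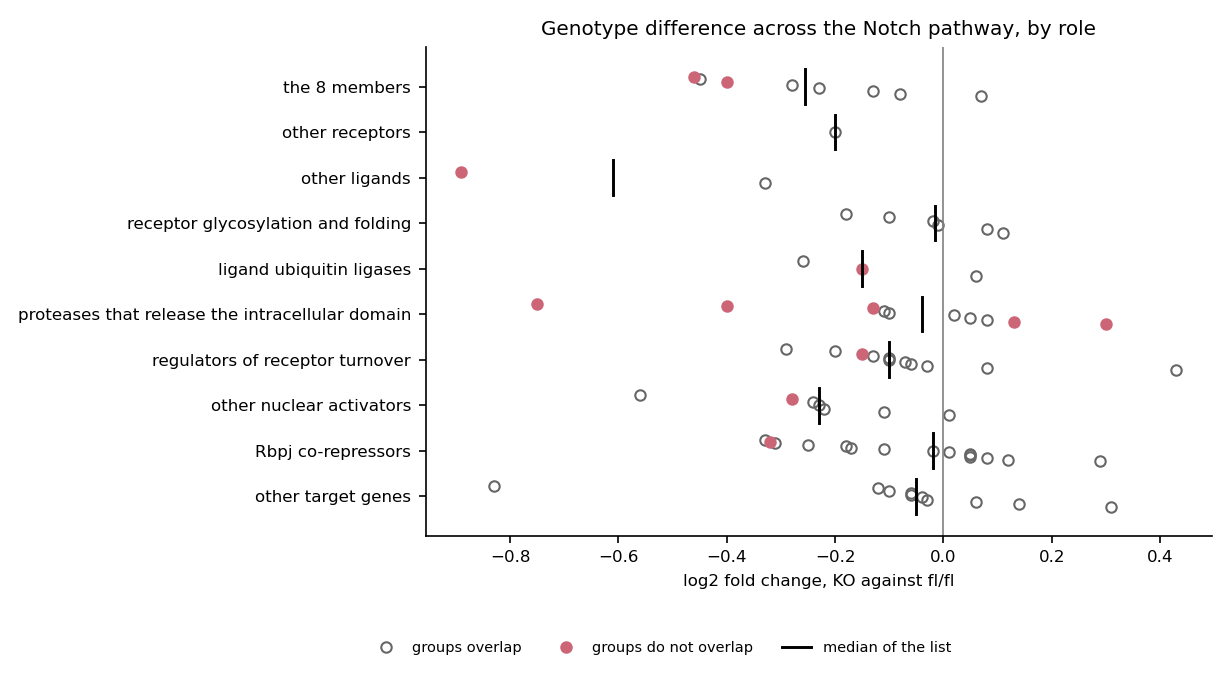
The horizontal axis is the log2 fold change of KO against fl/fl and each row is 1 role in the pathway, with 1 point per tested gene, filled where the 2 groups of 3 libraries did not overlap, and a black line at the median of the row. Filled points stand on both sides of 0 among the proteases, with Aph1b at −0.75 and Psen2 at 0.30.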

How the data were processed

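RNA-seq was performed on cultured hepatocytes, with 3 mice per genotype. The authors trimmed the reads with Trim Galore 0.6.7, aligned them to GRCm38 with STAR 2.7.10a and counted them per Ensembl gene with featureCounts, using strand, and they deposited these raw counts, unnormalised, in 1 table. How reads that match several genes were counted is not given in the sources used here. Symbols, coordinates and lengths are those of the GENCODE mouse annotation on GRCm38.

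CPM were scaled by TMM using edgeR 4.0.16 under R 4.3.3. The filter was that of the study, a mean DESeq2-normalised count above 5. The quasi-likelihood test was fitted to all 15105 genes and all 6 libraries with genotype and extraction day as terms, with Benjamini-Hochberg adjustment at an FDR of 0.05. A second fit added their interaction. DESeq2 1.42.0, the package named in the study's methods, was an alternative, as were other scalings, filters, covariates and sets of libraries. Extraction day was the study's own covariate. The scripts were tested on simulated data.

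The 8 genes, the lists of further pathway genes and the marker lists were chosen with earlier results of these data known. Named from each pathway list were the 3 genes with the highest mean CPM, those with an FDR below 0.05 in a contrast and those with an unadjusted p below 0.05 for genotype; others are marked where named.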

Additional observations from a re-analysis of the deposited data

How the results depend on the processing

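The count of genes called for genotype over all genes was 0 and stayed 0 in 13 alternatives; with DESeq2 it was 7. For extraction day the count of 0 became 225 with DESeq2, 122 without a filter on low counts and 0 to 29 with 1 library left out (29 without Sucnr1 fl/fl replicate 2). For the interaction it became 4 with DESeq2. The count of 2 genes of the 8 whose groups did not overlap fell to 1 with library totals alone, where Notch2 overlapped. It was 2 to 3 with 1 library left out (3 without Hep-Sucnr1 KO replicate 4). Groups separate more readily with fewer libraries. The share over all genes was not counted in these settings, so nothing is read from these counts.

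The genotype difference of Hes1 lay between −0.52 and −0.41 with 1 library left out. It kept its sign in all 14 alternatives, as did those of Notch2 and Maml1. Notch2 moved to −0.13 with the index series as a further term. The groups of Hes1 and Notch2 did not overlap, so leaving out a library could hardly change their sign. The genes were also chosen with this contrast known, so nothing is read from the kept signs. With 1 library left out, the difference ranged from −0.45 to 0.11 in Notch1, from −0.49 to 0.03 in Jag1, from −0.36 to 0.15 in Rbpj, from −0.28 to 0.49 in Hey1 and from −1.42 to 0.40 in Heyl. With the day 2 libraries alone it was 0.11 in Notch1, 0.14 in Rbpj and 0.39 in Heyl. With the index series as a further term it was 0.29 in Jag1 and −0.36 in Hey1, and with no covariate −0.01 in Hey1.

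The day difference, with 1 library left out, ranged from −0.83 to 0.24 in Notch1, from −0.69 to 0.05 in Rbpj, from −0.22 to 0.05 in Maml1, from −1.66 to 0.71 in Heyl and from −0.28 to 0.16 in Jag1. In Jag1 it was 0.16 with the index series as a further term and 0.00 with library totals alone, with filterByExpr and with no covariate. The cause of these changes was not tested.

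Counts limit Hey1 and Heyl, at 1 to 19 per library; for the other 6 genes the spread between 3 mice per genotype does. With the length of the longest transcript, the levels per kb of Hes1, Notch1 and Rbpj moved by more than their SD. No paired analysis was possible because the genotypes share only replicate number 3, on different extraction days.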
